A study of Mus musculus with 31 samples.

Results

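Adult hemoglobin genes and the erythroid heme enzyme gene Alas2 were read in whole-brain RNA as a measure of blood left in the tissue. The 5 genes were taken by symbol from the 48795 genes of the count table: the alpha globins Hba-a1 and Hba-a2, the beta globins Hbb-bs and Hbb-bt, and Alas2. All 5 passed the filter on low counts and were among the 19529 genes tested. The 4 globin genes took between 0.0394% and 0.117% of the counts of a library. Their mean level was lower in the deltamethrin group by 0.28 to 0.32 on the log2 scale, but the groups overlapped and no gene passed the test. Alas2 had nearly the same mean in both groups.

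The study looked at mouse brain exposed during development to deltamethrin, one of the pyrethroids, insecticides that hold nerve sodium channels open, and measured gene transcription and kinase activity in split samples. Total RNA from aliquots of homogenised brain was sequenced in 13 control and 18 deltamethrin samples. The labels used here give the tissue and the agent of each sample, and no strain, sex, age at collection, dose, litter or perfusion. They do not say which samples came from separate animals. The p-values below treat the samples as independent, which could not be checked. They may be too small if some samples share an animal or a litter.

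Hemoglobin carries oxygen in red blood cells and is built from alpha and beta chains, each holding a heme group. Alas2 encodes the erythroid form of 5-aminolevulinate synthase, which starts heme synthesis in the mitochondria of developing red cells, while Alas1 does so in other tissues. Reticulocytes, the young red cells that have lost their nucleus, still hold globin mRNA and lose it as they mature. Brain RNA therefore holds globin transcripts wherever blood remains in the vessels, and low globin expression has also been reported in neurons. In bulk tissue, fewer cells of a type and less RNA per cell cannot be told apart.

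Libraries held 17570311 to 38680621 counts, with a median of 30662621. Control replicate 2 stood apart from the rest. It had the lowest total, the fewest genes detected (25620, against a median of 28335) and 40.2% of its counts on the mitochondrial rRNA genes mt-Rnr1 and mt-Rnr2, against a median of 13.97%. It also had the highest TMM-scaled level of all 4 globins, though not the largest share of counts, so results are given with and without it. The tissue label fits the levels of neuronal genes, with Snap25, a synaptic vesicle fusion protein gene, at 1114 ± 259 CPM (counts scaled to a common library size with TMM factors) in control (SD, n = 13), and at 1192 ± 162 CPM among deltamethrin libraries (SD, n = 18).

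The alpha and beta genes each exist as a pair of near-identical copies, and this sets how far the counts of a pair can be told apart. On GRCm38 (GENCODE M21), Hba-a1 (ENSMUSG00000069919) lies on the plus strand of chromosome 11 from 32283511 to 32284465, and Hba-a2 (ENSMUSG00000069917) on the same strand from 32296489 to 32297298. Hbb-bs (ENSMUSG00000052305) lies on the minus strand of chromosome 7 from 103826534 to 103828096, and Hbb-bt (ENSMUSG00000073940) on the same strand from 103812524 to 103813996. Alas2 (ENSMUSG00000025270) lies on the plus strand of chromosome X from 150547375 to 150570638. All 5 are annotated as protein-coding.

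The coding sequences of Hba-a1 and Hba-a2 (429 bases each) differ at 1 base, written C381T with the base of Hba-a1 first and positions counted from 1 at the start codon. Those of Hbb-bs and Hbb-bt (444 bases each) also differ at 1 base, C417T, with the base of Hbb-bs first. Both changes fall on the third base of a codon. The stretches around these positions, from the GENCODE M21 transcripts, show how little separates the copies, with the differing base in capitals.
Hba-a1, coding bases 354 to 408: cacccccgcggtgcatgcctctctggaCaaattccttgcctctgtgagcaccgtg
Hba-a2, coding bases 354 to 408: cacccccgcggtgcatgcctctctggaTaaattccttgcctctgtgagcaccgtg
Hbb-bs, coding bases 390 to 444: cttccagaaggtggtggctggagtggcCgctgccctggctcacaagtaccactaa
Hbb-bt, coding bases 390 to 444: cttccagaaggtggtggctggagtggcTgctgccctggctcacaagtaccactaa
Of the 100-base windows of the Hba-a1 transcript, 56.5% occur letter for letter in Hba-a2, and 74.5% of those of Hba-a2 occur in Hba-a1. For Hbb-bs in Hbb-bt the share is 62.6%, and for Hbb-bt in Hbb-bs 54.8%. How the authors' counting treated reads that fit both copies is not given in the sources used here, so the split of counts within each pair is uncertain. The alpha sum and the beta sum do not depend on that split, except for reads that were dropped for fitting both copies.

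The promoters are printed as background, and no link between promoter sequence and level across libraries was tested. They are near-identical for the alpha pair and differ within the beta pair. Among the 250 bases before the RefSeq start (GRCm38.p6), the windows of Hba-a1 and Hba-a2 share an unbroken run of 247 bases. All 4 globin windows hold a TATA motif (TATAAA or TATAAG as written) 27 to 30 bases before the start, a motif found anywhere in 11.9% of 27025 mouse promoter windows of that length, and in that of Alas2 at -207. The windows below are 30 bases, 5′ to 3′ on the gene's strand, with the motif in capitals. For Alas2 the capitals mark a GATA motif, read on the other strand.
Hba-a1, chr11:32283633-32283662, plus strand: ccttggagggcaTATAAGtgctacttgctg
Hba-a2, chr11:32296450-32296479, plus strand: ccttggagggcaTATAAGtgctacttgctg
Hbb-bs, chr7:103827940-103827969, minus strand: cagggcagagcaTATAAGgtgaggtaggat
Hbb-bt, chr7:103813934-103813963, minus strand: cagcattgggtaTATAAAgctgagcagggt
Alas2, chrX:150547319-150547348, plus strand: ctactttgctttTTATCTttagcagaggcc
A GATA motif (AGATAA and also TGATAA, or with a last G in place of A, on either strand), the letters read by erythroid GATA factors, occurs in the windows of Hba-a1, Hba-a2, Hbb-bs and Alas2 but not Hbb-bt, and in 27.1% of all windows. CCAAT on either strand occurs in the 4 globin windows, not in that of Alas2, and in 34.5% of all windows. CACCC on either strand, the letters bound by Krüppel-like factors, occurs in all 5 and in 51.3% of all windows. No match overlapped a match of another motif. These are matches of letters and no measure of binding.

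Per kilobase of merged exon length, Hbb-bs had the highest level of the 5, at 328 ± 151 CPM per kb over all libraries (SD, n = 31), rank 85 of 19454 genes with a length. Hba-a2 (219 ± 82.5), Hbb-bt (210 ± 94.5) and Hba-a1 (202 ± 75.8 CPM per kb) followed and lay within 1 SD of each other. Alas2 was at 1.88 ± 0.501 CPM per kb, rank 11426. The lengths are those of the annotation, so the order within a pair carries the uncertainty of the split.

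Hba-a1 encodes an alpha chain of adult hemoglobin. Its level ran from 124 CPM (control replicate 9) to 353 CPM (control replicate 2) in control with a median of 146, and from 90.3 CPM (deltamethrin replicate 1) to 284 CPM (deltamethrin replicate 10) in deltamethrin, also with a median of 146. The medians were thus alike, and the groups differed at their ends: 6 of 18 deltamethrin libraries lay below every control and 2 control libraries lay above every deltamethrin library. Control averaged 183 ± 75.9 CPM (SD, n = 13) and deltamethrin 150 ± 46.3 CPM (SD, n = 18). The log2 fold change, deltamethrin over control, was -0.28 ± 0.16 (SE, 95% interval -0.61 to 0.04), with p = 0.0833 and an adjusted p of 0.813 in edgeR's quasi-likelihood test.

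Its copy Hba-a2 ran from 108 to 313 CPM in control with a median of 128, and from 83.2 to 248 CPM in deltamethrin with a median of 128. The lowest and highest libraries were the same as for Hba-a1, and again 6 deltamethrin libraries lay below every control. The log2 fold change was -0.29 ± 0.16 (SE, 95% interval -0.62 to 0.03; edgeR p = 0.0752, adjusted p = 0.813).

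Hbb-bs encodes an adult beta chain. Its level ran from 160 CPM (control replicate 9) to 641 CPM (control replicate 2) in control with a median of 227, and from 126 CPM (deltamethrin replicate 11) to 441 CPM (deltamethrin replicate 10) in deltamethrin with a median of 216. Here 5 of 18 deltamethrin libraries lay below every control and 9 of 18 lay below the control median. Control averaged 284 ± 141 CPM (SD, n = 13) and deltamethrin 229 ± 90.9 CPM (SD, n = 18), which is a log2 fold change of -0.31 ± 0.20 (SE, 95% interval -0.72 to 0.10; edgeR p = 0.132, adjusted p = 0.813).

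The other beta gene, Hbb-bt, ran from 97.7 to 357 CPM in control with a median of 134, and from 72.7 to 262 CPM in deltamethrin with a median of 126. Its extremes fell in the same 4 libraries as those of Hbb-bs. The log2 fold change was -0.32 ± 0.20 (SE, 95% interval -0.72 to 0.09; edgeR p = 0.119, adjusted p = 0.813).

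Alas2 was a low gene, with 68 to 260 counts in a library. It ran from 2.49 CPM (control replicate 9) to 6.97 CPM (control replicate 11) in control with a median of 4.35, and from 2.67 CPM (deltamethrin replicate 11) to 6.65 CPM (deltamethrin replicate 10) in deltamethrin with a median of 4.50. No deltamethrin library lay below every control and 1 control library lay above every deltamethrin library, so the ranges nearly coincided. The means were 4.57 ± 1.32 CPM (SD, n = 13) and 4.50 ± 1.15 CPM (SD, n = 18), a log2 fold change of -0.0094 ± 0.14 (SE, 95% interval -0.28 to 0.26; edgeR p = 0.945, adjusted p = 0.989). That the difference between the fold changes of Alas2 and the globins exceeds error was not tested.

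**Figure D1:**
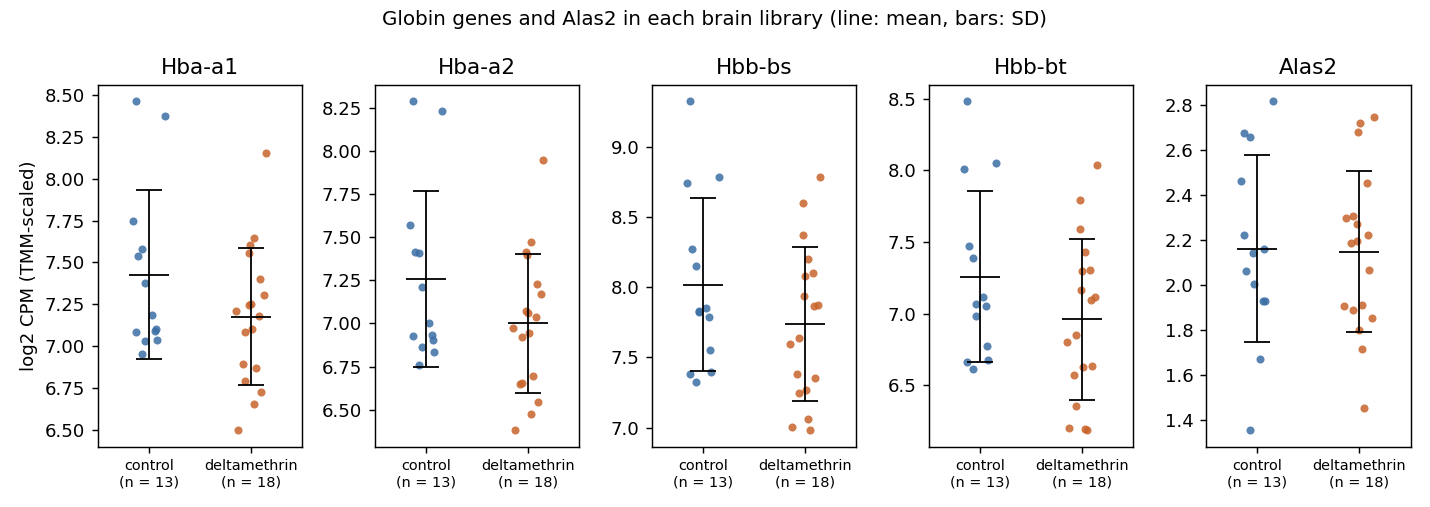
Log2 CPM (TMM-scaled, y axis) of each of the 5 genes in the 13 control and 18 deltamethrin libraries, 1 point a library, with the group mean as a line and the SD as bars. The groups overlap for every gene, control replicate 2 is the highest point for the 4 globins, and the Alas2 means of 2.16 and 2.15 nearly coincide.

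At an adjusted p under 0.05, 0 of the 5 genes were called, beside 0% of all 19529 genes tested, where the smallest adjusted p was 0.441. DESeq2 and limma voom also called 0 genes. At an unadjusted p under 0.05 the edgeR count was 0 of 5, beside 853 or 4.37% of all genes. The fold change was below 0 for all 5, as for 49.5% of all genes, whose median log2 fold change was 0.0014. The share of genes with a lower fold change was 3.32% for Hba-a1, 3.04% for Hba-a2, 2.48% for Hbb-bs, 2.31% for Hbb-bt and 46.3% for Alas2. The globins therefore sat near the lower end of the fold changes of all genes and did not pass the test. They also varied more than most genes within a group.

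That spread was measured by the biological coefficient of variation of edgeR, the variation between libraries of a group beyond counting error. It was 30.5% for Hba-a1 and for Hba-a2, 38.0% for Hbb-bs and 37.7% for Hbb-bt, against a median of 18.3% over all genes tested. The beta genes exceeded 92.7% (Hbb-bs) and 92.5% (Hbb-bt) of genes. Counting error at the mean count was 1.17% to 1.52% for the globins, so depth did not limit them. For Alas2 the coefficient was 24.6% and counting error 8.48%.

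The group difference moved with single libraries. Without control replicate 2 the log2 fold change moved to -0.17 ± 0.15 for Hba-a1, -0.18 ± 0.15 for Hba-a2, -0.15 ± 0.18 for Hbb-bs and -0.17 ± 0.19 for Hbb-bt (SE; edgeR adjusted p 0.926 for each). Without deltamethrin replicate 10, the highest of its group, it moved the other way, to -0.36, -0.37, -0.39 and -0.40 in the same order. Alas2 lay between -0.060 and 0.055 whichever single library was left out.

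Summed over the 4 globins, the level ran from 490 CPM (control replicate 9) to 1663 CPM (control replicate 2) in control with a median of 643, and from 376 CPM (deltamethrin replicate 1) to 1235 CPM (deltamethrin replicate 10) in deltamethrin with a median of 627. The log2 ratio of the group means was -0.30, and -0.17 without control replicate 2. As a share of all counts, which uses no scaling factor, the sum ran from 0.0394% in deltamethrin replicate 1 (Wilson 95% interval 0.0388 to 0.0401%) to 0.117% in control replicate 11 (interval 0.116 to 0.119%). These intervals cover counting error only, since no molecular identifiers are mentioned.

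Within each library the copies of a pair kept a narrow ratio. Hba-a1 had 1.08 to 1.18 counts for each count of Hba-a2 (median 1.13), and Hbb-bs had 1.56 to 1.85 for each of Hbb-bt (median 1.71). Alpha to beta was looser, from 0.470 in deltamethrin replicate 4 to 1.11 in deltamethrin replicate 11. Its median was 0.801 in control and 0.828 in deltamethrin, so the groups had nearly the same balance of chains. Alas2 had 3.80 counts per 1000 globin counts in control replicate 2 and 12.9 in deltamethrin replicate 1, with medians of 6.10 in control and 7.15 in deltamethrin. The globin sum is the denominator of this ratio, so the ratio falls where that sum is high.

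Across the 31 libraries the log2 CPM of the copies rose and fell together. Pearson r was 0.998 for Hba-a1 with Hba-a2 and 0.996 for Hbb-bs with Hbb-bt (Spearman rho 0.990 and 0.995), and the copies share sequence. Alpha against beta gave r of 0.906 to 0.916 over the 4 pairs (rho 0.904 to 0.933). Each of these had a permutation p of 1e-05, the smallest the permutations can give, and an adjusted p of 1.7e-05 over the 10 pairs. For Hba-a1 with Hbb-bs, r was 0.943 within control, 0.861 within deltamethrin and 0.871 without control replicates 2 and 11, the libraries farthest from the median.

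Alas2 followed the globins less closely. Its r with Hbb-bs was 0.547 (rho 0.469; permutation p = 0.0016 and 0.0082, adjusted p = 0.0016 and 0.0082 over the 10 pairs), and with Hba-a1 0.599 (rho 0.492; permutation p = 0.0004 and 0.0053, adjusted 0.0005 and 0.0075). With total counts in place of TMM scaling, r with Hbb-bs was 0.354 (adjusted permutation p = 0.0511). For Alas2 with Hbb-bs, r was 0.739 within control and 0.395 within deltamethrin, and 0.431 without control replicates 2 and 11. The difference of these r values between groups was not tested.

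**Figure D2:**
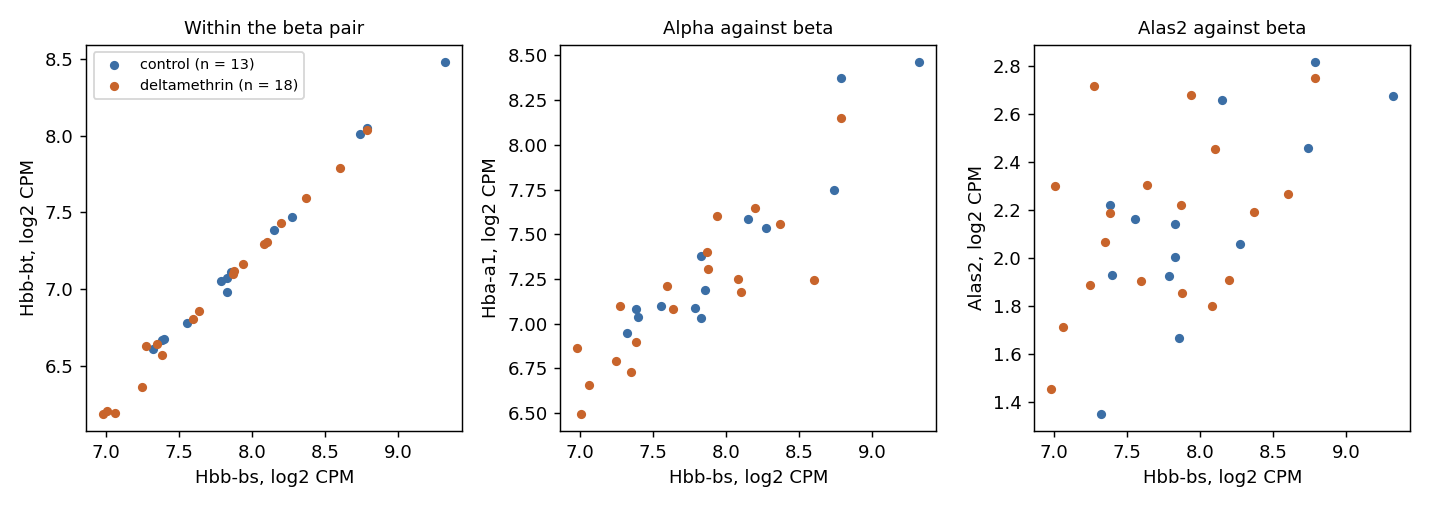
Log2 CPM of Hbb-bt, Hba-a1 and Alas2 (y axes) against that of Hbb-bs (x axes) in 31 libraries, colored by group. The beta copies form nearly a line (r = 0.996), alpha against beta is looser (r = 0.906), and Alas2 scatters most (r = 0.547).

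Embryonic globins had almost no counts. The embryonic alpha gene Hba-x had 2 counts and the embryonic beta gene Hbb-y 15 counts over all libraries together, the latter in 8 libraries with at most 3. Hbb-bh0 had 1 count. Hbb-bh1 and Hbb-bh2 had no count in 959825599, which allows up to 0.0031 CPM each. The theta-like genes Hbq1a (387 counts) and Hbq1b (191 counts) were found in all 31 libraries. The globins that tissues other than red cells express, neuroglobin (Ngb), cytoglobin (Cygb) and myoglobin (Mb), had log2 fold changes of 0.041 ± 0.11, 0.037 ± 0.10 and -0.050 ± 0.15 (SE). In the list of other globins, 0 of 4 tested genes had an unadjusted p under 0.05 in either direction, beside 2% of all genes higher and 2.37% lower. Over the libraries Cygb went against Hbb-bs (r = -0.611), and Hbq1a had r = 0.069.

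Of the heme synthesis genes, 0 of 11 tested had an unadjusted p under 0.05, beside 4.37% of all genes. At that share a count of 0 says little about a list of this size. The list's median log2 fold change was -0.062, beside 0.0014 for all genes. The most abundant were Fech, which inserts iron into the ring, at -0.035 ± 0.039, Alas1 at -0.062 ± 0.066, Cpox at 0.029 ± 0.072 and Urod at -0.12 ± 0.064 (log2 fold change, SE). Alas1, the form of the enzyme that other tissues use, had r = -0.539 with Hbb-bs, the opposite sign to Alas2. Alas1 has 6174 bases of merged exons, and protein-coding genes of 4 to 8 kb had a median r of -0.259 (quartiles -0.614 and 0.221). An r of -0.5 or less was reached by 21.4% of all genes tested, so this value was not unusual. As a list, the mean level of the heme synthesis genes had r = 0.193 with Hbb-bs (permutation p = 0.298, adjusted 0.347 over the 17 measures compared with Hbb-bs), and -0.228 with total counts in place of TMM scaling.

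The genes of the red cell membrane and cytosol were in part at the floor and in part carried by other cells. The band 3 anion exchanger gene Slc4a1 had 3 to 24 counts in a library and the Kell gene (Kel) 0 to 2. The erythroid transcription factor gene Gata1 had 7 counts over all libraries and Klf1 had 2 to 25 in a library. The abundant members of the list, Sptb and Ank1, which neurons also express, Prdx2, a peroxidase gene of many tissues, and Bpgm, which makes 2,3-bisphosphoglycerate, had log2 fold changes of 0.15 ± 0.19, 0.19 ± 0.17, -0.074 ± 0.062 and -0.034 ± 0.061 (SE). In that list 0 of 10 tested genes had an unadjusted p under 0.05, beside 4.37% of all genes, and its median was -0.022. Its mean level had r = -0.309 with Hbb-bs (permutation p = 0.0898, adjusted 0.139), and -0.515 (adjusted 0.0060) with total counts in place of TMM scaling. The list was mixed, with r of -0.846 for Sptb and -0.702 for Ank1 but 0.614 for Bpgm and 0.513 for Prdx2.

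Regulators of red cell maturation also gave 0 of 13 tested genes with an unadjusted p under 0.05, beside 4.37% of all genes. Their median was -0.035. Among the most abundant, Bnip3l, Mkrn1 and Tfrc, the transferrin receptor gene, had log2 fold changes of 0.023 ± 0.055, -0.040 ± 0.048 and 0.0080 ± 0.083 (SE). The list's mean level had r = 0.650 with Hbb-bs (rho 0.695; permutation p = 9e-05 and 2e-05, adjusted 0.00038 and 0.00011). Control libraries alone gave 0.646 and deltamethrin libraries 0.631. With total counts in place of TMM scaling it was 0.031. Single genes of the list differed in sign, from r = 0.761 for Isg20 to -0.484 for Zfpm1. An r of at least 0.5 with Hbb-bs was reached by 3 of the 13, beside 21.7% of all genes tested.

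Clearance of free hemoglobin and heme falls to haptoglobin, hemopexin, the scavenger receptor Cd163, the heme oxygenases and the ferritins. Of these genes, 0 of 10 tested had an unadjusted p under 0.05, beside 4.37% of all genes, with a median of -0.065. The ferritin chain genes Fth1 and Ftl1 had log2 fold changes of -0.18 ± 0.12 and -0.24 ± 0.13, the heme transporter gene Slc48a1 -0.086 ± 0.061 and Lrp1, which takes up hemopexin with its heme, 0.24 ± 0.18 (SE). Hmox1, the inducible heme oxygenase gene, averaged 2.52 ± 0.336 CPM (SD, n = 13) in control against 2.45 ± 0.489 CPM (SD, n = 18) in deltamethrin, and had r = -0.075 with Hbb-bs. The list's mean level had r = 0.560 with Hbb-bs (rho 0.461; permutation p = 0.00093 and 0.0089, adjusted 0.0020 and 0.015), 0.690 within control and 0.356 within deltamethrin. With total counts in place of TMM scaling it was -0.306, and with TMM scaling but without control replicate 2 it was 0.426. The list was mixed, with r of 0.888 for Ftl1 and 0.842 for Fth1 but -0.683 for Lrp1 and -0.206 for Cd163. An r of at least 0.5 was reached by 4 of the 10, beside 21.7% of all genes tested. The haptoglobin and hemopexin genes did not pass the filter and were not tested.

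Most markers of other blood cells were low. Exceptions with a higher mean than Alas2 included Ighm, Trbc2 (13.5 CPM in control, 11.1 in deltamethrin) and Gp1bb (9.42 and 9.75 CPM). None of the 10 neutrophil markers passed the filter. Their summed level was 0.186 to 1.19 CPM in control (median 0.522) and 0.297 to 4.40 CPM in deltamethrin (median 0.508), so the medians were alike. Of the platelet markers 4 of 11 were tested and 0 had an unadjusted p under 0.05, beside 4.37% of all genes. The list's mean level had r = -0.023 with Hbb-bs (permutation p = 0.903, adjusted 0.903). Of 14 lymphocyte markers 3 were tested, and 1 of these, beside 2.37% of all genes, had an unadjusted p under 0.05 with a lower mean in deltamethrin. It was the immunoglobulin mu chain gene Ighm, at 21.1 ± 3.65 CPM in control (SD, n = 13) and 16.4 ± 2.97 CPM in deltamethrin (SD, n = 18; edgeR p = 0.00024, adjusted p = 0.813). The B cell marker Cd79a had at most 12 counts in a library. The lymphocyte list had r = 0.514 with Hbb-bs (rho 0.545; permutation p = 0.0028 and 0.0017, adjusted 0.0047 and 0.0036), and 0.249 with total counts in place of TMM scaling. Its level is the mean of the 3 tested genes only, with r of 0.564 for Ighm, 0.737 for Trbc2 and -0.235 for Trac. Of the monocyte markers, 0 of 2 tested had an unadjusted p under 0.05, beside 4.37% of all genes. The monocyte list had r = 0.218 (permutation p = 0.240, adjusted 0.314).

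Vessel markers had fold changes mostly of the other sign, above 0 for 10 of 12 endothelial genes, beside 49.5% of all genes below 0. None had an adjusted p under 0.05, and 2 of 12, beside 2% of all genes, had an unadjusted p under 0.05 with a higher mean in deltamethrin, the tight junction gene Cldn5 by 0.21 ± 0.067 and the VEGF receptor gene Kdr by 0.29 ± 0.14 (log2 fold change, SE; edgeR p = 0.0041 and 0.0486). The list's median log2 fold change was 0.10, and its mean level had r = -0.586 with Hbb-bs (rho -0.574; permutation p = 0.00058 and 0.00092, adjusted 0.0014 and 0.0029), -0.683 within control and -0.485 within deltamethrin. The summed endothelial level was 154 to 236 CPM in control and 166 to 266 CPM in deltamethrin. Among pericyte and smooth muscle markers, 0 of 8 had an unadjusted p under 0.05, beside 4.37% of all genes. The list had r = -0.604 with Hbb-bs (rho -0.585; permutation p = 0.00037 and 0.00075, adjusted 0.0011 and 0.0029), -0.637 within control and -0.552 within deltamethrin. Single vessel genes differed in sign: Cdh5 and Tek had r = -0.763 and -0.720 with Hbb-bs, while Ly6c1, Itm2a and the smooth muscle gene Tagln had 0.564, 0.539 and 0.434. Cdh5 and Tek have 4203 and 4712 bases of merged exons, and the other 3 have 1677, 1744 and 1988. Against that order, Cldn5 (1416 bases) had r = -0.083 and the pericyte gene Vtn (2030 bases) -0.540. Over all protein-coding genes, r with Hbb-bs and fold change both shifted with length, as given below. Whether vessel content or length lies behind the vessel values was not tested. These 5 genes and Vtn were named after their values were seen.

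Among markers of other brain tissue, the choroid plexus genes Ttr and Folr1 (-0.46 ± 0.21 and -0.49 ± 0.20), the meningeal gene Dcn (0.29 ± 0.094) and the GABA neuron gene Gad2 (0.23 ± 0.11) had an unadjusted p under 0.05 and no adjusted p under 0.05 (log2 fold change, SE). That is 2 of 11 choroid plexus, 1 of 7 meningeal, 1 of 8 neuronal and 0 of 8 glial genes tested, beside 4.37% of all genes. Ttr, the transthyretin gene, had r = 0.477 with Hbb-bs, while the choroid plexus list of 11 genes had r = 0.190 and the meninges list r = -0.106 (adjusted permutation p = 0.347 and 0.603).

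Several measures of a library moved with Hbb-bs. The strongest of the 17 were the neuron list (r = -0.873, rho -0.832) and the mitochondrial rRNA share (r = 0.790, rho 0.771; permutation p = 1e-05 for each r and rho, adjusted 8.5e-05). The total count had r = -0.690 (rho -0.569; permutation p = 3e-05 and 0.001, adjusted 0.00017 and 0.0029), and -0.577 without control replicate 2. The number of genes detected had r = -0.592 and the glia list r = -0.534 (adjusted permutation p = 0.0011 and 0.0034). Without control replicate 2 they had r = -0.442 and -0.409. Within groups the mitochondrial rRNA share had r = 0.778 in control and 0.824 in deltamethrin, and the neuron list -0.865 and -0.878. Without control replicates 2 and 11 these r values over both groups were 0.703 and -0.841.

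The 4 globin transcripts are short, with 667 to 812 bases of merged exons, and other short genes were looked at as a class. A measure of this balance, chosen after the correlations above were seen, is the mean log2 CPM of the 359 other protein-coding genes under 1000 bases minus that of the 6441 over 5000 bases. Control averaged -1.96 ± 0.333 (SD, n = 13) and deltamethrin -2.14 ± 0.369 (SD, n = 18), and they differed by -0.18 (two-sided permutation p = 0.166). Control replicate 2 had the highest value, -1.17, and this difference is given with it only. Its r was 0.863 with Hbb-bs (rho 0.869) and 0.836 with Hba-a1 (rho 0.808), each with an adjusted p of 2e-05 for r and 3.2e-05 for rho over 8 added correlations. For Hbb-bs it was 0.959 within control, 0.787 within deltamethrin and 0.803 without control replicates 2 and 11.

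Alas2 has 2403 bases, and its r with the same measure was lower (r = 0.267, rho 0.194; permutation p = 0.147 and 0.295, adjusted 0.147 and 0.295). The r was 0.713 within control and -0.049 within deltamethrin, a difference that was not tested. After a straight-line fit on this measure, what remained of each gene still moved together. The residuals had r = 0.667 for Hba-a1 with Hbb-bs (rho 0.698), 0.649 for Hbb-bs with Alas2 (rho 0.715) and 0.711 for Hba-a1 with Alas2 (rho 0.721), with adjusted permutation p of 2e-05 to 0.00011. The 3 genes thus still varied together once a line on this measure had been taken out.

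**Figure D3:**
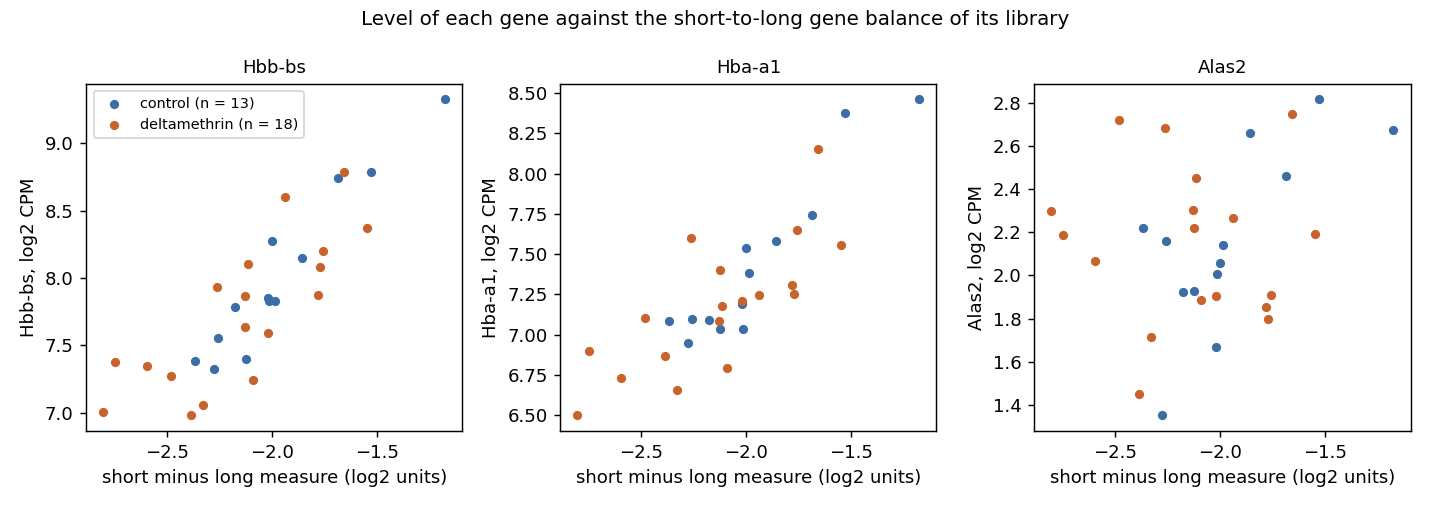
Log2 CPM of Hbb-bs, Hba-a1 and Alas2 (y axes) against the mean log2 CPM of short minus long protein-coding genes (x axes) in 31 libraries, colored by group. Hbb-bs (r = 0.863) and Hba-a1 (r = 0.836) rise along the axis, and Alas2 (r = 0.267) scatters.

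The same order by length held for the group difference. Protein-coding genes other than the 5 had a median log2 fold change of -0.17 under 1 kb (359 genes, 84.4% below 0), -0.095 from 1 to 2 kb (1657 genes), -0.028 from 2 to 4 kb (4643 genes), 0.016 from 4 to 8 kb (5764 genes) and 0.054 at 8 kb or more (2694 genes). Their median r with Hbb-bs went from 0.690 in the shortest class to -0.437 in the longest. Among the 359 short genes, 69 had a lower fold change than Hba-a1, 63 than Hba-a2, 53 than Hbb-bs and 52 than Hbb-bt. The globins were thus on the low side of their length class, but inside its range. Genes are not independent replicates, and these are descriptions.

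**Figure D4:**
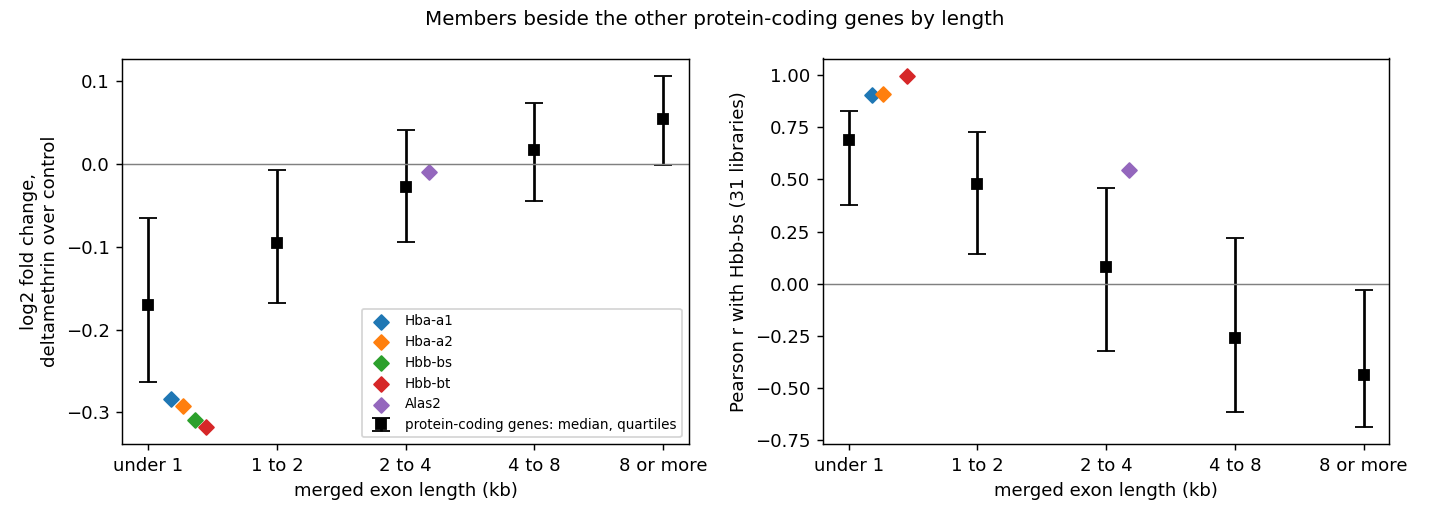
Median (squares) and quartiles (bars) of the log2 fold change (left) and of the Pearson r with Hbb-bs (right) of protein-coding genes in 5 classes of merged exon length (x axis, kb), with the 5 genes as diamonds, Hbb-bs left out on the right. Both medians shift steadily with length, and the globins lie beyond the quartiles of the shortest class.

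With the short-minus-long measure as a covariate, the log2 fold change was -0.045 ± 0.094 for Hba-a1, -0.051 for Hba-a2, 0.0016 ± 0.11 for Hbb-bs, -0.021 for Hbb-bt and 0.056 for Alas2 (SE where given). With the mitochondrial rRNA share as a covariate it was -0.20, -0.21, -0.23, -0.24 and 0.027 in the same order, and with the endothelium list -0.11, -0.12, -0.098, -0.11 and 0.012. Total counts in place of TMM factors gave -0.19, -0.20, -0.20, -0.22 and 0.057. No gene was called in any of these fits. Whether the balance of short and long genes and the globin level share a source was not tested.

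**Figure D5:**
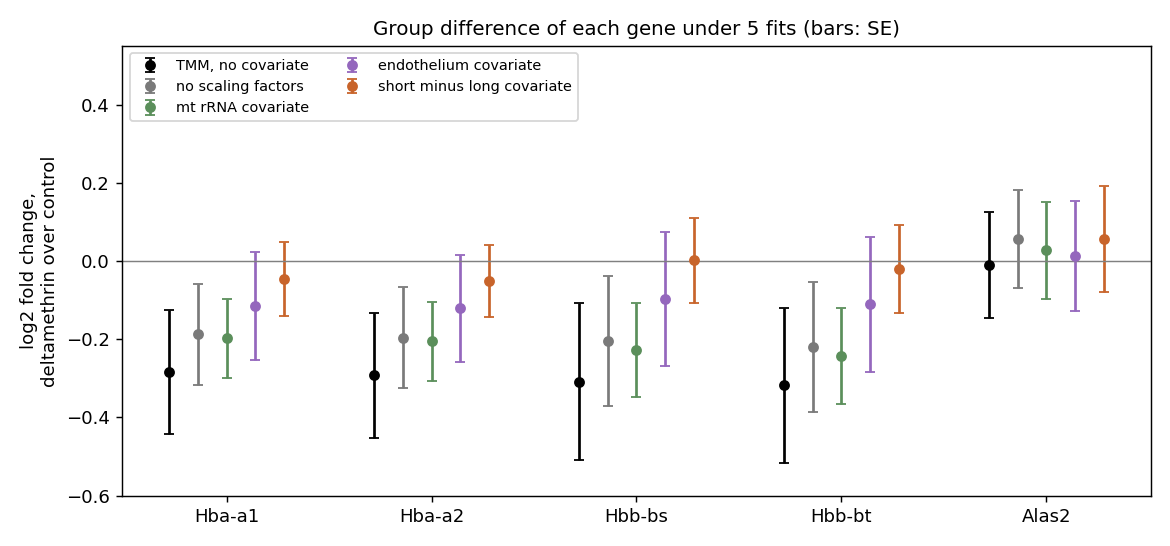
Log2 fold change, deltamethrin over control (y axis), of each of the 5 genes under 5 fits, with SE bars. The globins lie at -0.28 to -0.32 in the TMM fit with no covariate and closest to 0 with the short-minus-long covariate, and Alas2 lies near 0 in each.

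By the rule for genes most like Hbb-bs, the 10 other genes with the largest r over the 31 libraries were Scarna2, Atp6v0e, Tmem256, Immp2l, Pdia5, Rps3, Ndufa6, Ndufb4, Atp5l and Rps14 (r = 0.910 to 0.925). They include the ribosomal protein genes Rps3 and Rps14 and the respiratory chain genes Ndufa6 and Ndufb4, and none is an erythroid marker of the lists used here. Their merged exon lengths run from 414 to 6443 bases, and only 1 of the 10, Scarna2, is under 1000 bases. Merged length joins the exons of all annotated transcripts of a gene, so it can exceed the length of a single transcript. For Hba-a1 it is 812 bases, against 699 for the transcript compared above. Which transcripts of the 10 genes were measured was not determined, so they may be shorter than these lengths. All 10 had a log2 fold change below 0, from -0.12 for Immp2l to -0.40 for Scarna2, beside 49.5% of all genes. They were picked for following Hbb-bs, itself at -0.31, over the same libraries. The shared sign therefore follows largely from the choice and adds no information. In all, 20 genes outside the 5 had a larger r with Hbb-bs than Hba-a1 did. An r of at least 0.5 with Hbb-bs was reached by the other 4 genes and by 21.7% of all genes tested, so a positive r with Hbb-bs was common. An r of -0.5 or less was reached by none of the 4 and by 21.4% of all genes tested.

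The genes most like Alas2 were 6430710M23Rik (r = 0.759), Gm37138, Gm20705, Gm13315 and Acss3 (r = 0.673), mostly unclassified or noncoding entries of the annotation. An r of at least 0.5 with Alas2 was rarer, at 1.93% of all genes, and was reached by the 4 globins (r = 0.547 to 0.606).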

How the data were processed

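The authors deposited whole-number counts per Ensembl gene for 31 brain libraries, not normalized. Trimmomatic, HISAT2, SAMtools, MultiQC and GRCm38 are named in the submitters' processing notes. The counting tool, its annotation and its use of strand are not given in the sources used here. Columns were matched to samples by title and grouped by the agent label. Gene IDs were matched to GENCODE M21 (48435 IDs, 99.3%), and promoters to RefSeq for all 5 genes.

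Genes were filtered with filterByExpr (minimum count 10, minimum total 15), scaled by TMM factors and tested with edgeR 4.0.16 (R 4.3.3, quasi-likelihood, robust, no covariate), with Benjamini-Hochberg adjustment over 19529 genes and a threshold of 0.05. Depth was 17570311 to 38680621 counts a library. The SE was obtained as the size of the fold change (log2) over the root of its F statistic. Log2 CPM uses a prior count of 2, and list levels are means of log2 CPM over tested genes. Permutation tests were two-sided with 100000 resamples. Alternatives were other scaling factors and filters, DESeq2 1.42.0, limma 3.58.1 (voom), covariates, summed copies and each library left out. The fitting code was tested on simulated data. The short-minus-long measure was added after seeing the data.

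The 5 genes and the lists were chosen with earlier results of these data known. Named genes are the 5 members, list genes with an unadjusted p under 0.05, up to 4 of the most abundant tested genes of a list, and the 10 and 5 genes most like Hbb-bs and Alas2. Other genes were named after their values were seen. Hbb-b1, Hbb-b2 and Ahsp were not matched and are not analysed here. Some list genes are not reported here by name.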

Additional observations from a re-analysis of the deposited data

How the results depend on the processing

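No paired analysis was possible because titles carry numbers that no pair of samples shares, and replicate numbers here only name samples in accession order. Under 12 or 13 alternatives each the fold change of Hba-a1, Hba-a2 and Hbb-bt stayed below 0, and no gene of the table was called in any fit. The log2 fold change of Hbb-bs was 0.0016 with the short-minus-long covariate. That of Alas2 turned to 0.057 without scaling factors, 0.00044 without a filter, 0.026 in limma voom, and 0.027, 0.012 and 0.056 with the mitochondrial rRNA, endothelium and short-minus-long covariates. It ran from -0.060 to 0.055 with each library left out. Genes with an unadjusted p under 0.05 (853) numbered 1948 without a filter, 1796 when the mitochondrial rRNA share entered the fit and 498 when the endothelium list did. With 1 library left out they ran from 526 (without control replicate 10) to 1389 (without deltamethrin replicate 9). They also moved by over 1.5 times without control replicates 4, 7 or 11 or deltamethrin replicates 3, 8 or 10. Without scaling factors, r of Hbb-bs was 0.354 with Alas2 (adjusted p = 0.0511), -0.228 with heme synthesis, -0.515 with red cell membrane, 0.031 with erythroid regulators, -0.306 with clearance, 0.249 with lymphocyte and -0.0035 with choroid plexus genes. With the platelet list r was 0.0937 under upper quartile factors and -0.121 to 0.0918 with 1 library left out, and with the meninges list -0.266 to 0.0016. The cause of these shifts was not tested. Leaving out the scaling factors moved the median over all tested genes from 0.0014 to 0.043 (log2 fold change). Depth limits Kel (at most 2 counts in a library) and Slc4a1 (at most 24). For Alas2 the counting error of 8.48% was below the variation between libraries (24.6%).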
